A study of Mus musculus with 40 samples.

Results

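The lysosomal hydrolases, cathepsins and the proton pump were followed in the transcriptomes of CD11b+ myeloid cells sorted from mouse brain, as a set of 44 genes listed by name and function. The list held 10 cathepsins and other proteases, 7 glycosidases, 6 proteins of lipid and sterol handling, 7 membrane proteins counted together with progranulin, the transcription factor Tfeb and 13 subunits of the vacuolar proton pump (V-ATPase). All 44 were present among the 21894 protein-coding genes of each of the 3 expression tables, and all 44 reached a mean level of 1 RPKM (read counts scaled to exon length and to the size of the library) in every table, so none was lost to the filter on low values.

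The samples came from 3 experiments in adult male mice, in which glioma cells were implanted in the striatum and CD11b+ cells were sorted from the tumor-bearing hemisphere for RNA sequencing. In the first, C57BL/6 mice carried GL261 glioma cells (a mouse glioma line marked with tdTomato and luciferase) for 21 days post-implantation (DPI). They received water (vehicle), the peptide 7aaRGD or the peptide 7aaRAE in the tumor, by catheter from an osmotic pump placed under the skin. Naive mice without tumor were the reference. Each of the 4 groups had 3 samples, each a pool of 2 animals. In the second, GL261 tumors were followed to 28 DPI under vehicle (n = 4), 7aaRGD (n = 4), an anti-PD-1 antibody given intraperitoneally (n = 3) or 7aaRGD with anti-PD-1 (the combination, n = 3). Each sample was 1 animal, and the groups without anti-PD-1 received a control IgG. The sample labels call these mice nude. The study's methods call the GL261 hosts C57BL/6, and its results call the mice of this experiment immunocompetent. In the third, athymic nude mice carried U87-MG, a human glioma line marked with a red fluorescent protein, for 21 DPI under vehicle, 7aaRGD or 7aaRAE (n = 3 each). The study's methods give samples sorted at day 21 as pools of 2 animals, which covers this experiment too. 7aaRGD holds the integrin-binding RGD motif and in 7aaRAE that motif is exchanged for RAE. GL261 and U87-MG are single established lines, and the athymic hosts of U87-MG lack T cells.

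Lysosomes are acid compartments in which proteins, glycans and lipids taken up by phagocytosis or delivered by autophagy are broken down. The V-ATPase acidifies them. Its cytosolic V1 sector hydrolyses ATP and its membrane V0 sector carries the protons, and most cathepsins and glycosidases need the low pH to be active. In macrophages and microglia the same enzymes clear debris and myelin, and cathepsins also prepare antigens for presentation. Many lysosomal genes carry an E-box with the core CACGTG near their start, the kind of element that basic helix-loop-helix factors such as TFEB bind.

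The promoters of the members were read first, since the list was drawn up by function and used no sequence. A window from 250 bases before to 50 bases after the start site was found for 36 of the 44 members in RefSeq (GRCm38.p6); Ctsb, Ctsh, Npc1, Asah1, Atp6v1c1, Atp6v1g1, Atp6v1h and Atp6v1b2 had none in that table. A gene with more than 1 window was counted once, as holding a match if any of its windows did. The palindrome CACGTG was present for 12 of the 36 members (33.3%), compared with 8.1% of all 27025 genes with a window. Among the 7677 protein-coding genes with a window whose mean reached 1 RPKM at 21 DPI, it was present for 12.6%. The longer TCACGTG, read on either strand and always containing CACGTG, was present for 11 members (30.6%), compared with 4.3% and 7.6% of those same backgrounds. Of 83 other lysosomal genes with a window 24.1% held CACGTG. Among the members with a window, the core was found for 4 of 8 proteases (Ctsa, Ctsd, Ctsl, Lgmn) and 3 of 7 glycosidases (Gla, Glb1, Gaa). It was found for 2 of 7 membrane proteins (Lamp1, Mcoln1), 3 of 9 V-ATPase subunits (Atp6v0b, Atp6v0d1, Atp6v1a) and none of the 4 lipid-handling genes. These matches describe the letters in the windows and were not measured as bound sites.

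The stretches around the core are given for 7 of the 12 members that hold it, chosen by their levels in the comparisons described here. Capitals mark CACGTG with the T before it and the A after it where these are present. Ctsa lies on the plus strand and its 2 matches are close together, so the single capital at the end of one run and at the start of the other belongs to the neighboring match. The other genes shown lie on the minus strand, where each run is the reverse complement of the reference, and the second Ctsd run is cut at the edge of the window. The start of the core CACGTG in each run is given relative to the RefSeq start site.
Ctsd, chr7:142387909-142387936, from -98: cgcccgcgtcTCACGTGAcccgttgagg
Ctsd, chr7:142388056-142388077, from -245: tccccCACGTGAcctgtatcca
Ctsa, chr2:164833750-164833777, from -12: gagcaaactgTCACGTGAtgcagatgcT
Ctsa, chr2:164833767-164833794, from 5: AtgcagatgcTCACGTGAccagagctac
Lgmn, chr12:102439125-102439152, from -49: ggaatgtctgTCACGTGgtccattttat
Ctsl, chr13:64370740-64370767, from -236: gcgttagaagcCACGTGctgatctaaat
Gla, chrX:134601183-134601210, from -194: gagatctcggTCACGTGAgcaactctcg
Gla, chrX:134601216-134601243, from -227: aagcgattgaTCACGTGAgcatctacgt
Atp6v1a, chr16:44139374-44139401, from -131: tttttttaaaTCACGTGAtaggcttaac
Atp6v0d1, chr8:105566051-105566078, from -3: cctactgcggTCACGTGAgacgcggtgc
Ctsd, Ctsa, Gla, Atp6v1a and Atp6v0d1 thus held the full 8-base palindrome, Lgmn held 7 of its bases and Ctsl held the core alone. Of these genes Gla, Atp6v1a and Atp6v0d1 were higher, and Ctsd, Ctsa, Lgmn and Ctsl lower, in tumor-bearing than in naive brain, as described next. Of all 12 members with the core 3 were called higher and 7 lower. Among those not shown, Glb1, Gaa and Atp6v0b were lower and Lamp1 and Mcoln1 were not called.

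The question of the first comparison was how CD11b+ cells of a GL261-bearing hemisphere differed from those of naive brain. The members split evenly: 19 were higher in the vehicle group, 19 were lower and 6 did not pass the test (limma on log2(RPKM + 1), Benjamini-Hochberg adjusted p under 0.05 over 9727 genes). Of all genes tested 34.6% were called higher and 48.2% lower, so a called change was the usual outcome for a gene in this comparison. For 40 of the 44 members the ranges of the vehicle and naive samples were separate, against 85.4% of all genes. The median member log2 fold change was 0.0099 and that of all genes was -0.14. The members therefore shared no direction. The V-ATPase subunits had 9 called higher and 4 lower, with a median of 0.48. Proteases had 5 higher and 5 lower, glycosidases 2 higher and 4 lower of 7, lipid-handling genes 3 higher and 3 lower, and the membrane proteins none higher and 2 lower of 7.

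Gla (alpha-galactosidase A, which removes terminal galactose from glycolipids; chromosome X, 134588149 to 134601125, mm10) had the largest difference. Its level was 1.80, 1.79 and 1.77 RPKM in the naive samples and 22.8, 26.0 and 27.1 RPKM in the vehicle samples. It was the least abundant member in naive cells, and every tumor sample lay far above every naive one, a log2 fold change of 3.23 (SE 0.07, limma with Benjamini-Hochberg adjusted p = 1.13e-08). Npc2 (the soluble cholesterol-binding protein of the lysosome; chromosome 12, 84754562 to 84773152) was at 110.4, 111 and 106 RPKM in naive and 347, 406 and 385 RPKM in vehicle samples. Gm2a (the activator protein that presents GM2 ganglioside to hexosaminidase) was at 76.8, 75.7 and 74.4 RPKM against 249, 216 and 216 RPKM. For both, the groups stood apart, with log2 fold changes of 1.79 and 1.57. Ctsc (cathepsin C, a dipeptidyl peptidase that activates serine proteases of granules; chromosome 7, 88278085 to 88310888) rose from 111, 119 and 121 RPKM to 310.1, 346 and 370.2 RPKM (log2 fold change 1.54, SE 0.08). Psap (prosaposin, precursor of the 4 saposins that assist sphingolipid hydrolases) rose from 2014, 2010 and 1996 RPKM to 4428, 4397 and 4055 RPKM. The 6 lipid-handling genes, of which Psap was by far the most abundant, held 0.878% of the summed protein-coding RPKM in naive and 1.63% in vehicle samples.

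Ctsd (cathepsin D, the main aspartic protease of the lysosome; chromosome 7, 142375911 to 142388038) fell furthest. It was at 3350, 3454 and 3421 RPKM in the naive and 1314, 877 and 911 RPKM in the vehicle samples. The groups did not overlap, and the log2 fold change was -1.74 (SE 0.15, limma with Benjamini-Hochberg adjusted p = 9.66e-06). Scarb2 (LIMP-2, the membrane protein that carries beta-glucocerebrosidase to lysosomes) was at 109, 116 and 113 RPKM against 45.4, 39.97 and 44.5 RPKM (log2 fold change -1.36). Laptm5, a lysosomal membrane protein of blood cells, was at 1324, 1346 and 1329 RPKM against 634, 563 and 651 RPKM (log2 fold change -1.12). Both membrane proteins were thus at under the naive level in every tumor sample. Ctsl (cathepsin L, a cysteine endopeptidase) was at 137, 139.8 and 135 RPKM against 88.5, 62.4 and 53.5 RPKM, with the widest spread of any member in the vehicle group (CV 26.7%) and a log2 fold change of -1.03. Hexa (the alpha subunit of beta-hexosaminidase, chromosome 9, 59539540 to 59565109) was at 574, 585 and 590.1 RPKM against 327, 266 and 279.6 RPKM (log2 fold change -1.01). Lgmn (legumain, the asparaginyl endopeptidase; chromosome 12, 102394084 to 102439813) was at 2798, 2718 and 2516 RPKM against 1571, 1240 and 1325 RPKM (log2 fold change -0.96). In each of these the lowest naive sample was above the highest tumor sample.

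**Figure D1:**
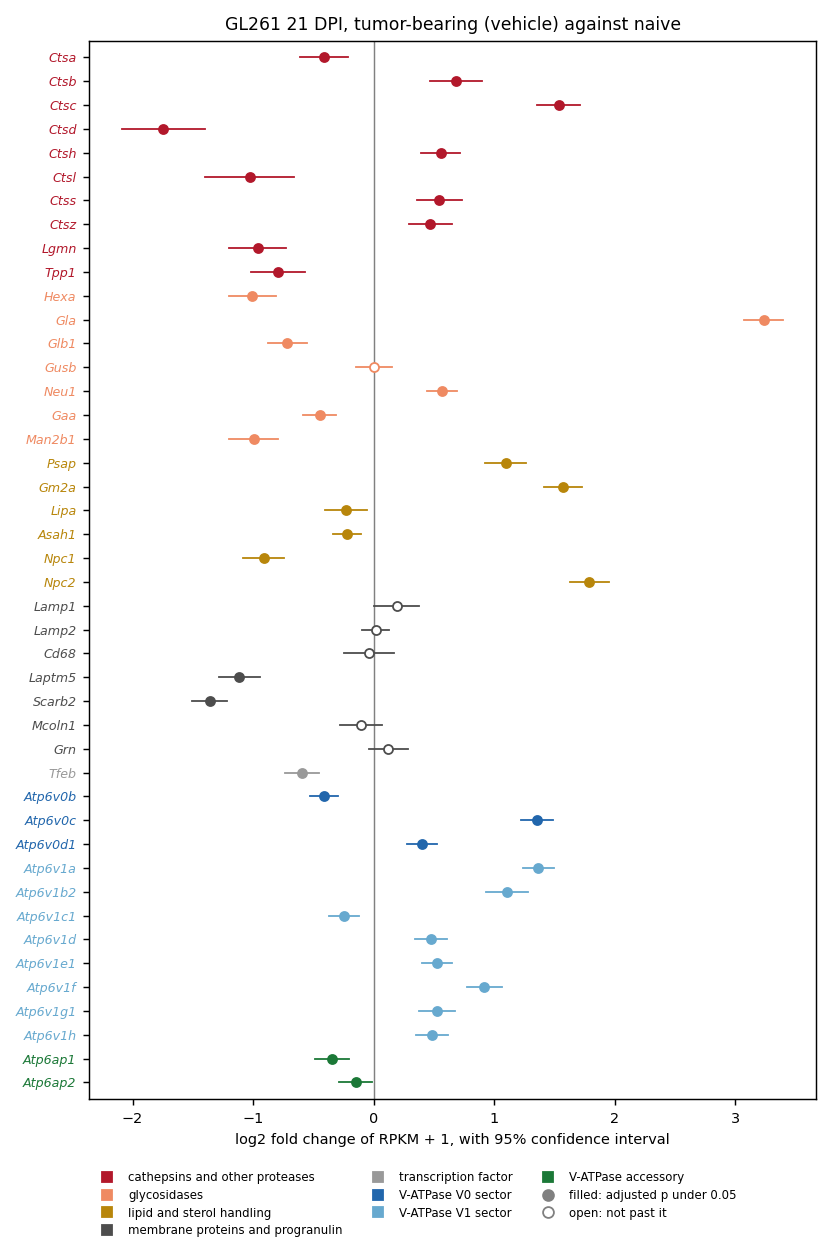
Each row is a member, colored by role, with its log2 fold change of RPKM + 1 between vehicle and naive samples at 21 DPI (point) and the 95% confidence interval (line). Filled points are the 38 members past an adjusted p of 0.05, 19 on either side of 0, with Gla at 3.23 farthest right and Ctsd at -1.74 farthest left.

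The remaining proteases followed both directions. Ctss (cathepsin S, which trims the MHC class II invariant chain and works at neutral pH too; chromosome 3, 95526786 to 95556403) was the most abundant member in every group and rose from 4284, 4240 and 4247 RPKM to 5946, 6631 and 6070 RPKM (log2 fold change 0.54); with no filter on low values its adjusted p by limma with Benjamini-Hochberg was 0.0811, which did not pass. Ctsb (cathepsin B, a cysteine protease, log2 fold change 0.69), Ctsh (cathepsin H, an aminopeptidase, 0.55) and Ctsz (cathepsin Z, a carboxypeptidase, 0.47) were also higher. Tpp1 (tripeptidyl peptidase 1) fell by 0.80 on the log2 scale. Ctsa (the serine carboxypeptidase that also protects beta-galactosidase and neuraminidase) fell by 0.41. Among the glycosidases, Man2b1 (alpha-mannosidase) fell by 0.99, Glb1 (beta-galactosidase) by 0.72 and Gaa (the acid alpha-glucosidase that degrades glycogen) by 0.45. Neu1, the sialidase of the lysosome, rose by 0.57, and Gusb (beta-glucuronidase) did not pass the test at 0.00 (95% confidence interval -0.15 to 0.15).

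In the lipid role, Npc1, the membrane partner that receives cholesterol from Npc2, went the other way from Npc2: 48.5, 49.0 and 48.1 RPKM in naive samples and 28.0, 25.3 and 22.9 RPKM in vehicle samples, a log2 fold change of -0.91. Lipa (acid lipase) and Asah1 (acid ceramidase) were lower by smaller amounts, with log2 fold changes of -0.23 and -0.22. The other 5 membrane proteins did not pass: Lamp1 (0.19, adjusted p = 0.0532 by limma with Benjamini-Hochberg), Lamp2 (0.02), Cd68 (macrosialin, -0.04), Mcoln1 (the cation channel TRPML1, -0.10) and Grn (progranulin, 0.12). Lamp1 and Lamp2 are the main structural glycoproteins of the lysosomal membrane, and the 95% interval of Lamp2 ran from -0.09 to 0.13. Tfeb (a master factor of lysosomal genes; chromosome 17, 47737030 to 47792419) was at 14.9, 15.4 and 15.2 RPKM in naive and 10.5, 9.55 and 9.09 RPKM in vehicle samples. The groups did not overlap, and the log2 fold change was -0.60.

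Within the proton pump most V1 subunits rose, the V0 subunits went in different directions and the accessory subunits fell. Atp6v1a (the catalytic A subunit; chromosome 16, 44085402 to 44139705) rose from 15.6, 16.02 and 15.8 RPKM to 43.6, 43.9 and 39.8 RPKM (log2 fold change 1.37). Atp6v1b2, the B subunit that alternates with A in the V1 ring, rose from 33.7, 34.5 and 34.8 RPKM to 74.8, 82.9 and 67.9 RPKM (log2 fold change 1.104). Of the other V1 subunits, Atp6v1f (0.92), Atp6v1e1 and Atp6v1g1 of the peripheral stalks (0.53 each), Atp6v1h, a regulator of the sector (0.48), and Atp6v1d of the central shaft (0.47) rose. Atp6v1c1, the C subunit, fell by 0.25. In V0, Atp6v0c (the proteolipid of the rotating ring, 1.36) and Atp6v0d1 (which joins the ring to the shaft, 0.40) rose, while Atp6v0b, another proteolipid of the ring, fell by 0.41. The accessory subunits Atp6ap1 and Atp6ap2 (also known as the prorenin receptor) fell by 0.35 and 0.15. The 13 subunits together held 0.243% of the summed protein-coding RPKM in naive and 0.278% in vehicle samples.

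Reads of Atp6v0c may be shared with processed copies that have rows of their own. The row Atp6v0c-ps2 was at 2.77 to 3.14 RPKM in naive samples, between 5.13 and 7.88 RPKM in vehicle samples and between 129 and 156 RPKM in the U87-MG vehicle samples, where Atp6v0c itself was at 16.7, 16.2 and 17.9 RPKM. In the GL261 vehicle samples at 28 DPI the row Atp6v0c-ps2 was at 3.69 to 5.78 RPKM. The level of Atp6v0c is therefore uncertain, in the U87-MG mice above all.

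**Figure D2:**
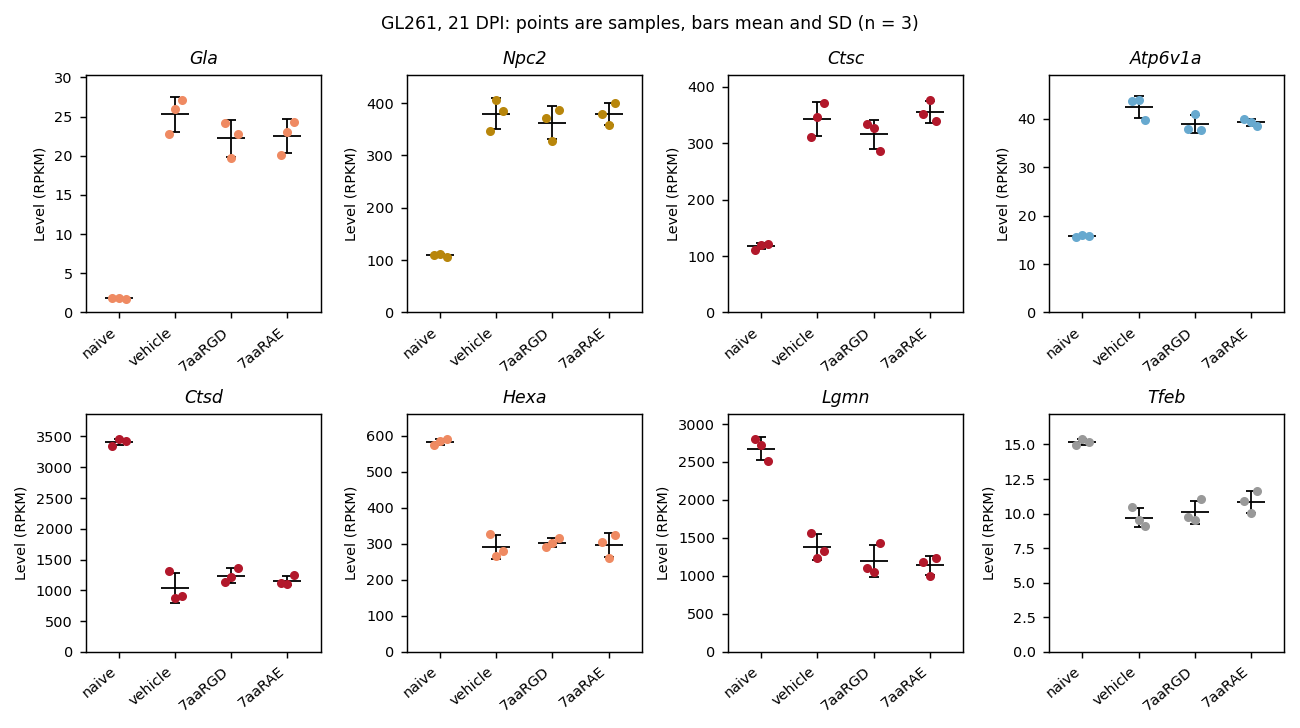
Levels in RPKM of 8 members at 21 DPI in naive, vehicle, 7aaRGD and 7aaRAE groups, with a point for each sample and bars for mean and SD (n = 3). Gla, Npc2, Ctsc and Atp6v1a sit low in naive samples and high in all tumor groups, and Ctsd, Hexa, Lgmn and Tfeb show the reverse, while the 3 tumor groups lie close together.

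The cell types in the sorted fraction differed at the same time. The summed level of 10 homeostatic microglia markers was 10433 to 10994 RPKM in naive and 653 to 1016 RPKM in vehicle samples, with all 10 at 1 RPKM or more in both. The 6 infiltrating macrophage markers summed to 69.5 to 82.7 RPKM in naive samples, with Arg1 under 0.1 RPKM, and to 2776 to 3874 RPKM in vehicle samples. The 6 monocyte markers summed to 19.6 to 22.0 RPKM and 759 to 1202 RPKM. The 5 genes that define CD11b+ myeloid cells were all at 1 RPKM or more in every group, with sums of 3550 to 3615 RPKM in naive and 1234 to 1363 RPKM in vehicle samples. The part of this shift in the member differences was not tested, and in bulk samples fewer cells of a type and less RNA per cell cannot be told apart. The overall scaling moved the median of all genes from -0.14 to 0.0051 with median-of-ratios factors and to -0.059 with TMM factors, and the split of member calls from 19 higher and 19 lower to 23 and 15, and 21 and 16. Among all genes, 7870 of 9734 and 7935 of 9733 were called under these scalings. Of the members called, 34 and 35 were also called in the main fit, so some members that did not pass there passed here. Lipa, Asah1 and Atp6ap2 were not called under either scaling, Atp6v1c1 was not called under the median-of-ratios scaling, and Atp6ap2 was at 0.017 there.

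Of 104 other lysosomal genes 89 were tested, and 29 were higher (32.6%) and 50 lower (56.2%) in the vehicle group, where 34.6% and 48.2% of all genes were. Of the 17 other glycosidases and sulfatases 16 were lower and 1 was higher. The largest rises were those of Acp5 (tartrate-resistant acid phosphatase, 166 against 0.390 RPKM, log2 fold change 6.89) and Gpnmb (a glycoprotein of lysosomes and melanosomes, 105 against 0.0808 RPKM, log2 fold change 6.61). The largest falls were those of Ctsf (cathepsin F, 6.14 against 58.2 RPKM, -3.07) and Cst3 (cystatin C, a secreted inhibitor of cysteine cathepsins, 1753 against 13936 RPKM, -3.00). Of the 12 members with CACGTG in their promoter window 3 were called higher and 7 lower. Of the 24 with a window without it 11 were called higher and 9 lower. The shares of all genes split in this way were not computed, so these counts are not read as a result.

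A few members held much of the signal in every group, where 5 had a mean of 1000 RPKM or more in naive samples (Ctss, Ctsd, Lgmn, Psap and Laptm5), and 5 as well in vehicle samples at 21 DPI (Ctss, Psap, Lgmn, Ctsz and Ctsd). The 2 most abundant, Ctss and Ctsd in naive cells and Ctss and Psap in GL261 tumors, held 38.3% of the members' summed RPKM in naive and 50.3% in vehicle samples. At the other end, the means of Mcoln1 (4.67 RPKM), Atp6v1h (4.86 RPKM) and Gla (1.79 RPKM) were under 10 RPKM in naive samples. All 44 members held 7.26% ± 0.0433 (SD, n = 3) of the summed protein-coding RPKM in naive and 6.69% ± 0.244 (SD, n = 3) in vehicle samples. Proteases alone held 4.55% and 3.73%, and glycosidases 0.367% and 0.193%. The spread within groups was small, with a median CV over members of 2.12% in naive samples and between 4.33% and 10.5% in the tumor groups of the 3 experiments.

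The next question was whether the integrin-blocking peptide changed these genes. In the GL261 tumors at 21 DPI no member passed the test between 7aaRGD and vehicle, where 0.138% of 9440 genes were called higher and 0.0106% lower (limma with Benjamini-Hochberg adjustment). By limma 2 members had an unadjusted p under 0.05. A few of 44 genes pass that threshold without any difference, so such counts, here and below, are not read as a result. Ctss was at 5180, 4638 and 5577 RPKM under 7aaRGD and at 5946, 6631 and 6070 RPKM under vehicle. The groups did not overlap, and the log2 fold change was -0.28 (95% confidence interval -0.48 to -0.08, adjusted p = 0.257 by limma with Benjamini-Hochberg). The study, which used NOISeq, reports Ctss among the genes reduced under 7aaRGD, whereas the downward estimate here did not pass. Asah1 was at 109, 107 and 123 RPKM against 132, 126 and 126 RPKM (log2 fold change -0.18) and Lamp2 at 58.6, 58.4 and 58.5 RPKM against 61.1, 60.7 and 62.1 RPKM (-0.07). These 3 members did not overlap between the groups, where 17.6% of all genes did not. The next largest differences downward were those of Ctsb (-0.23) and Lgmn (-0.21). The largest upward were those of Ctsd (0.28, 95% confidence interval -0.05 to 0.61), Laptm5 (0.08) and Scarb2 (0.08), the last 2 of which turned to slightly below 0 under TMM scaling. The estimates were negative for 28 of the 44 members, and their median was -0.06 beside 0.02 for all genes. Markers of cell types moved alongside: the 10 homeostatic microglia markers summed to 1111 to 1505 RPKM under 7aaRGD, above the 653 to 1016 RPKM of the vehicle samples, and the 6 infiltrating macrophage markers to 2180 to 2265 RPKM, below their 2776 to 3874 RPKM. The part of these shifts in the member values was not tested.

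The control peptide was compared with the same vehicle samples, so both peptide comparisons share them. No member passed between 7aaRAE and vehicle, where 0% of 9440 genes were called higher and 0% lower by limma and 600 of all genes, but no member, had an unadjusted p under 0.05. Lgmn was at 1179, 999.7 and 1238 RPKM under 7aaRAE and at 1571, 1240 and 1325 RPKM under vehicle, a log2 fold change of -0.27 (95% confidence interval -0.59 to 0.04). All 3 samples lay below the lowest vehicle sample. Ctsb (-0.24) and Npc1 (-0.17) followed downward, and Ctsd (0.19), Tfeb (0.15) and Atp6v1d (0.11) upward. There were 4 members without overlap, Atp6v1d upward and Ctss, Lgmn and Asah1 downward, against 12.6% of all genes. The homeostatic microglia markers summed to 899 to 1212 RPKM and the infiltrating macrophage markers to 2286 to 2739 RPKM under 7aaRAE, the latter again below all vehicle samples, and their part was not tested.

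The peptides themselves were compared at the same delivery and time. No member differed between 7aaRGD and 7aaRAE in GL261 tumors at 21 DPI, with 0% of genes called in either direction, and the smallest adjusted p among members was 0.971 by limma with Benjamini-Hochberg. The 95% intervals of all 44 log2 fold changes lay within -0.37 to 0.42. Each interval was drawn for its member alone, and it would be too narrow if replicates were adjusted before deposit. The 3 largest estimates downward were those of Ctsc (-0.17), Ctss (-0.12) and Asah1 (-0.11), and the 3 largest upward those of Ctsd (0.09), Laptm5 (0.07) and Cd68 (0.07). Ctsc was at 333, 327 and 286 RPKM under 7aaRGD and 351, 376 and 339 RPKM under 7aaRAE. Ctsc and Lamp2 (-0.08) were the 2 members that did not overlap, against 11.4% of all genes.

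In U87-MG tumors the members were again not called in any of the 3 comparisons, each with 44 members tested among 9664 genes. Of all genes, 0% were called in either direction between 7aaRGD and vehicle and between 7aaRGD and 7aaRAE, and 0.0103% were called higher and 0% lower between 7aaRAE and vehicle, by limma. The number of members with an unadjusted p under 0.05 by limma was 0, 1 and 3 for 7aaRGD against vehicle, 7aaRGD against 7aaRAE and 7aaRAE against vehicle. No share of all genes stands beside these counts, so they are not read as a result. Gla had the largest estimate in the 2 comparisons that involve 7aaRAE, at 11.4, 17.05 and 10.8 RPKM under 7aaRAE, at 5.10, 14.4 and 7.97 RPKM under 7aaRGD and at 6.61, 6.20 and 8.81 RPKM under vehicle. The 7aaRGD samples spread over both other groups, with a CV of 51.9% that was the highest of any member in any group. The log2 fold change of Gla was 0.76 for 7aaRAE against vehicle (95% confidence interval 0.07 to 1.46, adjusted p = 0.591 by limma with Benjamini-Hochberg) and -0.55 for 7aaRGD against 7aaRAE (-1.24 to 0.14). Its estimate for 7aaRGD against vehicle was 0.21, and -0.14 without the 7aaRGD sample at 14.4 RPKM.

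Under 7aaRGD against U87-MG vehicle, the largest estimates downward were Ctsl (-0.38), Glb1 (-0.24) and Hexa (-0.20), and those upward after Gla were Atp6v0c (0.15) and Npc1 (0.11). Glb1 was the only member without overlap, at 56.5, 57.3 and 41.8 RPKM against 57.8, 64.4 and 59.9 RPKM, where 10.8% of genes did not overlap. Under 7aaRAE against vehicle 8 members did not overlap, beside 16.5% of genes: Gla, Atp6ap2 (0.29), Atp6v0c (0.23), Neu1 (0.19) and Psap (0.08) upward and Hexa (-0.35), Ctsc (-0.20) and Atp6v1c1 (-0.07) downward. Atp6v0b was at -0.14. Between the peptides Tfeb (0.20, higher under 7aaRGD) and Lamp2 (-0.21) did not overlap, beside 6.46% of genes. The largest estimates downward after Gla were Ctsl (-0.33) and Neu1 (-0.28), those upward after Tfeb were Hexa (0.15) and Ctsc (0.09), and all 44 intervals lay within -1.24 to 0.54. Hexa under 7aaRAE was at 534, 337 and 476 RPKM, so that its highest sample lay just below the lowest vehicle sample at 544 RPKM. The homeostatic microglia markers summed to 3119 to 4703 RPKM under 7aaRAE, 2945 to 5949 RPKM under 7aaRGD and 4495 to 5991 RPKM under vehicle, and their part was not tested.

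**Figure D3:**
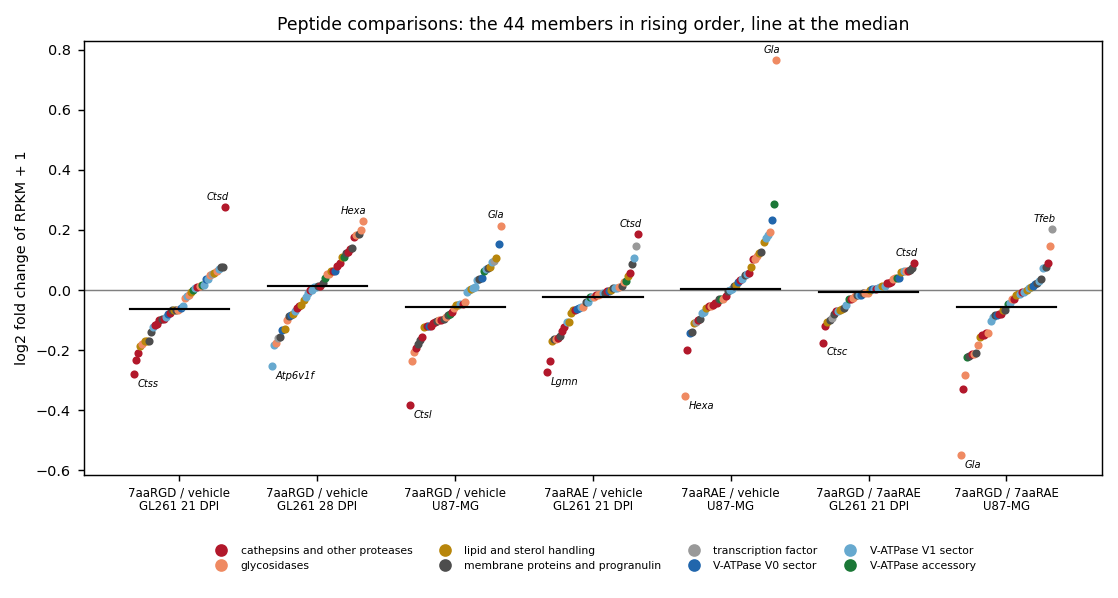
Log2 fold changes of RPKM + 1 of the 44 members in rising order for each of 7 comparisons that involve a peptide, colored by role, with a line at the median of each. No point passed the adjusted test, the medians lie close to 0, and the widest range is that of 7aaRAE against vehicle in U87-MG tumors, where Gla reaches 0.76.

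At 28 DPI the peptide alone again left no member past the test against vehicle, where 0.123% of 9737 genes were called higher and 0.524% lower (limma with Benjamini-Hochberg adjustment); 4 members had an unadjusted p under 0.05. Atp6v1f came nearest, at 116, 105, 103 and 100.2 RPKM under 7aaRGD and 118, 123, 134 and 131 RPKM under vehicle. The groups did not overlap, with a log2 fold change of -0.25 (95% confidence interval -0.40 to -0.11, adjusted p = 0.118 by limma with Benjamini-Hochberg). Lamp2 (0.19) and Scarb2 (0.14) were the other members without overlap, beside 8.02% of genes. Hexa (0.23) and Glb1 (0.20) had the largest upward estimates, and Atp6v1g1 and Gla (-0.18 each) the next downward. The median member was at 0.012. Under 7aaRGD the homeostatic microglia markers summed to 1028 to 1615 RPKM against 757 to 1100 RPKM in vehicle samples, the infiltrating macrophage markers to 1658 to 1975 against 1718 to 2648 RPKM and the monocyte markers to 75.3 to 139 against 52.3 to 91.7 RPKM, and their part was not tested.

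Under anti-PD-1 against vehicle, Hexa and Ctsc rose and Ctsl, Lgmn, Ctsa and Atp6v1g1 fell, so that 2 members of 44 were called higher and 4 lower, where 10.8% of genes were called higher and 12.2% lower. With so few members called, and 3 to 9 called when each sample was left out in turn, these counts do not set the members apart from all genes. For 8 the groups were separate, beside 32.5% of genes, and the median member was at -0.045 beside -0.005 for all genes. Hexa was at 206, 296, 247 and 245 RPKM in the vehicle and 335, 376 and 368 RPKM in the anti-PD-1 samples. Every treated sample lay above every vehicle sample, a log2 fold change of 0.54 (SE 0.11, limma with Benjamini-Hochberg adjusted p = 0.00398). Ctsc was at 244, 196, 249 and 284 RPKM against 337, 325 and 313 RPKM, without overlap, a log2 fold change of 0.43 (SE 0.12, adjusted p = 0.0256 by limma with Benjamini-Hochberg). Atp6v0b had the next largest upward estimate, at 0.15, and did not pass.

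The members that fell under anti-PD-1 were proteases and a stalk subunit of the pump. Ctsl (chromosome 13, 64359337 to 64370890) was at 139, 143, 127 and 134 RPKM in vehicle and 82.2, 96.6 and 107 RPKM in anti-PD-1 samples. The groups stood apart, with a log2 fold change of -0.51 (SE 0.13, limma with Benjamini-Hochberg adjusted p = 0.0155). Lgmn was at 2162, 2137, 1677 and 1972 RPKM against 1311, 1247 and 1824 RPKM, so that the third anti-PD-1 sample lay within the vehicle range; its log2 fold change was -0.46 (SE 0.13). Ctsa (chromosome 2, 164832873 to 164841032) was at 303, 316, 266 and 307 RPKM against 239.7, 219 and 247 RPKM (log2 fold change -0.34). Atp6v1g1 (chromosome 4, 63544772 to 63550750) was at 129, 124, 129 and 135 RPKM against 102, 110.4 and 102 RPKM (log2 fold change -0.30). Ctsa and Atp6v1g1 did not overlap between the groups. Hexa and Atp6v1g1 were called under every alternative. Without the first anti-PD-1 sample 3 members were called in place of 6, with Ctsc, Lgmn and Ctsl no longer called. The calls of Ctsc and Lgmn were also lost without the second anti-PD-1 sample or the first or second vehicle sample, that of Ctsa without the second anti-PD-1 sample, and that of Lgmn with no filter on low values or with the compared groups fitted alone (adjusted p = 0.0630 and 0.0583 by limma with Benjamini-Hochberg).

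**Figure D4:**
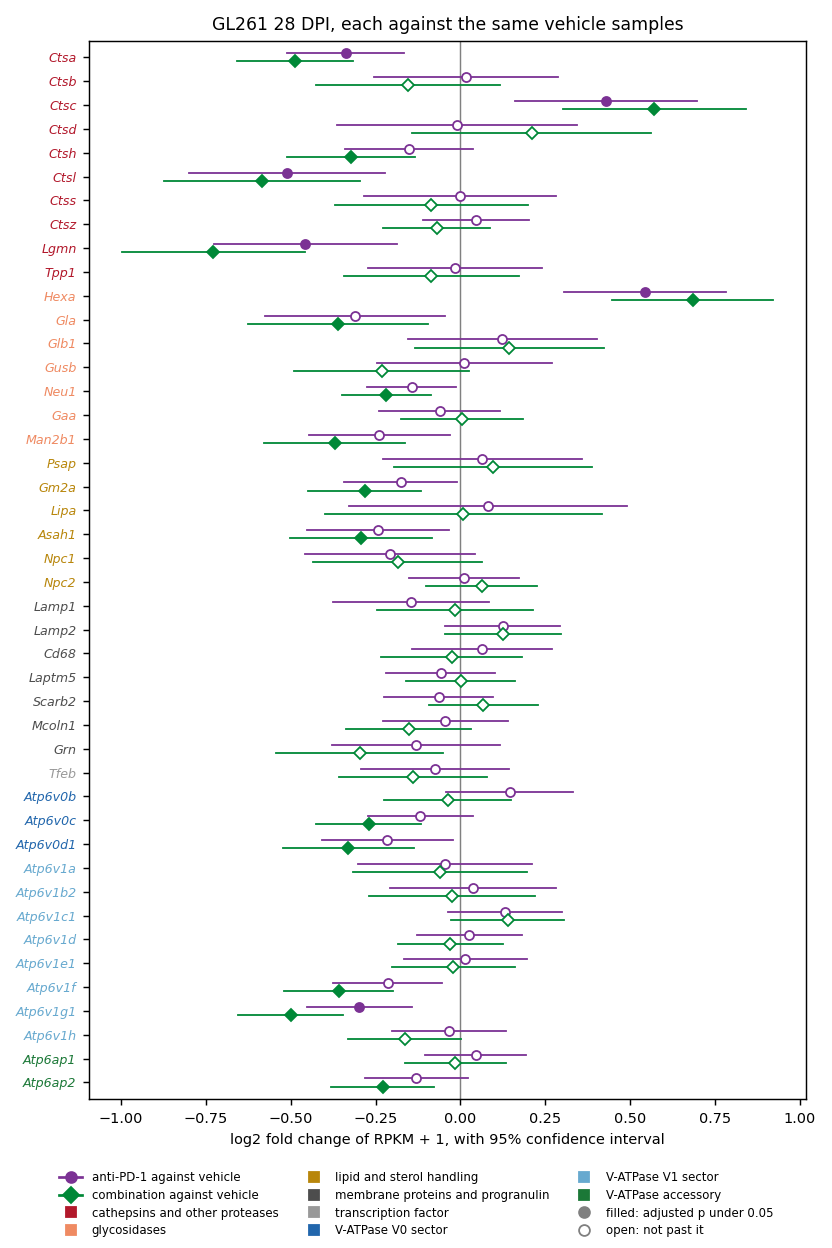
Log2 fold changes of RPKM + 1 with 95% confidence intervals for each member at 28 DPI, anti-PD-1 and combination each against the same 4 vehicle samples. Filled points passed an adjusted p of 0.05: 6 members under anti-PD-1 and 16 under the combination, with Hexa at 0.54 and 0.68 and Lgmn at -0.46 and -0.73.

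Under the combination 2 members were called higher and 14 lower than vehicle, where 17.5% of genes were called higher and 25.8% lower. For 13 the groups were separate, beside 48.8% of genes, and the median member was at -0.085 beside -0.049 for all genes. The same vehicle samples serve both comparisons, so the values are given side by side. Hexa was at 370.1, 452 and 373 RPKM, above all vehicle samples, a log2 fold change of 0.68 (SE 0.11, limma with Benjamini-Hochberg adjusted p = 3.14e-04). Ctsc was at 359.8, 350.4 and 367 RPKM (log2 fold change 0.57, SE 0.12). Lgmn was at 1079, 1260 and 1248 RPKM, below all vehicle samples, a log2 fold change of -0.73 (SE 0.13, limma with Benjamini-Hochberg adjusted p = 5.04e-04). These 3 members had no overlap with vehicle. Ctsl was at 82.6, 98.4 and 89.7 RPKM (log2 fold change -0.59), Ctsa at 199, 231 and 206 RPKM (-0.49) and Atp6v1g1 at 89.3, 94.4 and 89.4 RPKM (-0.50).

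By role, 4 proteases were lower under the combination (Lgmn, Ctsl, Ctsa and Ctsh at -0.32) and 1 was higher. Of the glycosidases 3 were lower (Man2b1 at -0.37, Gla at -0.36 and Neu1 at -0.22) and 1 was higher, and the lipid-handling genes Asah1 (-0.29) and Gm2a (-0.28) were lower. No membrane protein was called in either direction. Of the 13 pump subunits 5 fell and none rose: Atp6v1g1, Atp6v1f (-0.36), Atp6v0d1 (-0.33), Atp6v0c (-0.27) and Atp6ap2 (-0.23). Atp6v1f was at 92.9, 102 and 101 RPKM against 118 to 134 RPKM in vehicle samples, and Atp6v0d1 at 67.1, 82.2 and 65.7 RPKM against 84.9 to 97.8 RPKM. Both groups of values stood apart. The pump as a whole held 0.262% of the summed protein-coding RPKM in vehicle, 0.251% in anti-PD-1 and 0.233% in combination samples. The largest upward estimate that did not pass was that of Ctsd, at 0.21. Fewer members were called in all with other factors. There were 3 higher and 8 lower with median-of-ratios factors, and 3 higher and 7 lower with TMM factors. More were lower than higher under each scaling, as among all genes in the main fit (25.8% lower and 17.5% higher). The shares of all genes by direction under the other factors are not given, so this lean is not read as a trait of the members. Atp6ap2, Gla, Asah1, Ctsh, Gm2a and Neu1 were not called under either, and Atp6v0c was not called with TMM factors. The call of Gla was also lost with the compared groups fitted alone, and those of Gla and Asah1 with the replicate number as a block (adjusted p = 0.0535, 0.0739 and 0.0542 by limma with Benjamini-Hochberg).

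**Figure D5:**
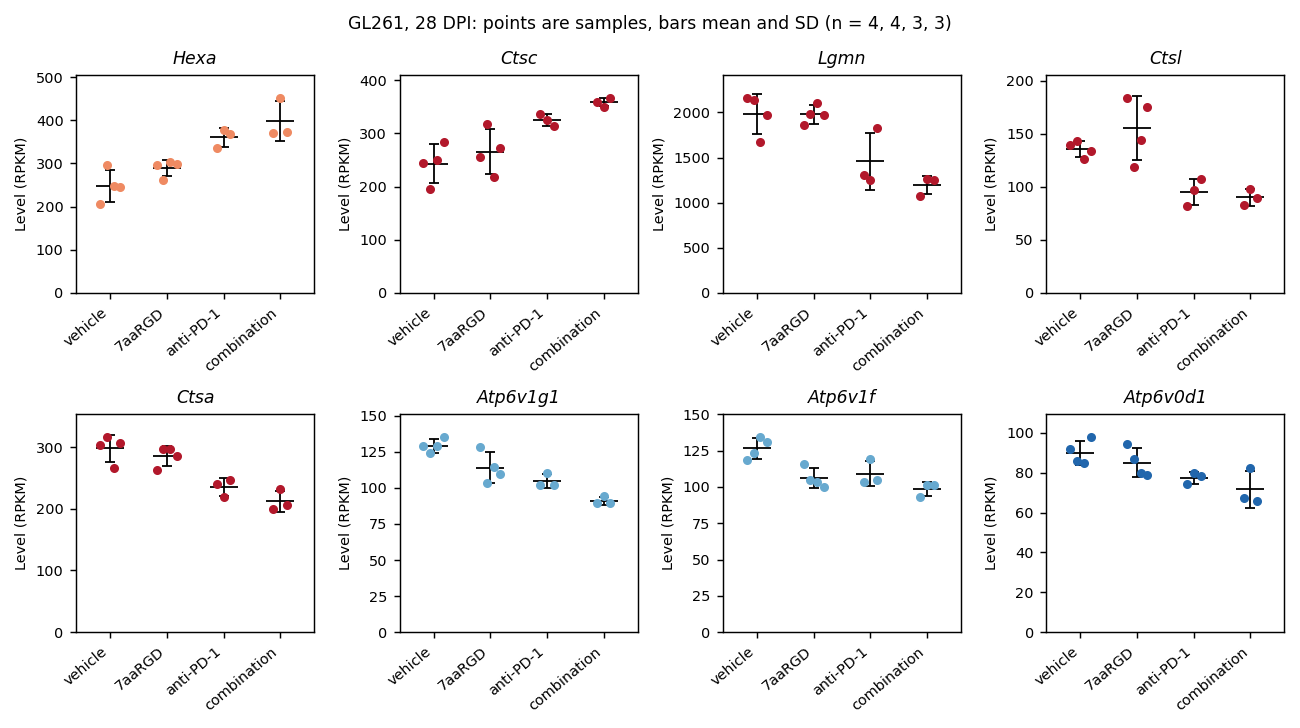
Levels in RPKM of 8 members at 28 DPI under vehicle, 7aaRGD, anti-PD-1 and the combination, with a point for each sample and bars for mean and SD (n = 4, 4, 3 and 3). Hexa and Ctsc sit higher, and Lgmn, Ctsl, Ctsa and Atp6v1g1 lower, in anti-PD-1 and combination samples than in vehicle samples, apart from the third anti-PD-1 sample of Lgmn.

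What the peptide added to anti-PD-1 was asked by setting the combination against anti-PD-1 alone. No member passed, where 0.0205% of genes were called in each direction; 1 member had an unadjusted p under 0.05 by limma. That was Atp6v1g1 (-0.20, 95% confidence interval -0.37 to -0.04, adjusted p = 0.239 by limma with Benjamini-Hochberg), whose combination samples all lay below the anti-PD-1 samples. The largest estimates downward were Lgmn (-0.27) and Gusb (-0.24), and upward Ctsd (0.22), Hexa (0.14) and Ctsc (0.14). There were 5 members without overlap, Ctsc upward and Neu1, Atp6v0b, Atp6v1f and Atp6v1g1 downward, beside 21.5% of genes. The interaction, the departure of the combination from the sum of the single treatments on the log2 scale, was called for no member, with 0% of genes called in either direction by limma and 794 genes at an unadjusted p under 0.05. Gusb was the member with an unadjusted p under 0.05, at -0.43 (95% confidence interval -0.79 to -0.06, adjusted p = 0.588 by limma with Benjamini-Hochberg). Lgmn (-0.27) and Ctsb (-0.26) followed downward, and Npc2 (0.13), Gla (0.12) and Lamp1 (0.12) led upward. The median member was at -0.056, beside -0.055 for all genes.

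What anti-PD-1 added to the peptide was asked by setting the combination against 7aaRGD alone, which shares its combination samples with the comparison against vehicle. Of the members 2 were higher and 11 lower, where 13% of genes were called higher and 23.5% lower, and 13 did not overlap, beside 40.4% of genes. Hexa (0.46) and Ctsc (0.44) rose. Ctsl fell from 184, 119, 144 and 176 RPKM under 7aaRGD to 82.6, 98.4 and 89.7 RPKM (log2 fold change -0.76), and Lgmn from 1858, 1979, 2107 and 1974 RPKM to 1079, 1260 and 1248 RPKM (log2 fold change -0.73). Neither gene had samples that overlapped. Ctsa (-0.43), Man2b1 (-0.42), Gusb (-0.41), Asah1 (-0.35), Ctsh (-0.34), Grn (-0.32), Atp6v1g1 (-0.32), Atp6ap2 (-0.27) and Atp6v0d1 (-0.25) also fell. Psap had the third upward estimate, at 0.15, and did not pass. Without the first combination sample 7 members were called in place of 13. Under either alternative scaling 3 were higher and 6 lower, and Asah1, Ctsh, Atp6ap2, Grn and Atp6v0d1 were not called. The shares of all genes by direction under those scalings are not given. Grn and Atp6v0d1 were also not called with no filter on low values (adjusted p = 0.0921 and 0.0585), with the replicate block (0.0834 and 0.0810) or with 1 residual degree of freedom less (0.0573 and 0.0617), nor with several samples left out in turn, and Atp6v0d1 not with the compared groups fitted alone (0.10), by limma with Benjamini-Hochberg.

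Marker levels of other cells moved with anti-PD-1 as well. The 8 NK and T cell markers summed to 2.58 to 8.37 RPKM in vehicle, 2.14 to 45.5 RPKM in anti-PD-1 and 18.2 to 62.0 RPKM in combination samples, with Cd3e, Cd3d and Cd8a under 0.1 RPKM in vehicle samples. The 6 monocyte markers summed to 52.3 to 91.7, 220 to 267 and 281 to 385 RPKM in the same order, and 7 dendritic cell markers to 1.90 to 3.97, 4.45 to 18.4 and 14.1 to 17.5 RPKM. The 10 homeostatic microglia markers summed to 757 to 1100, 1022 to 1296 and 1364 to 1480 RPKM, and the 6 infiltrating macrophage markers to 1718 to 2648, 2202 to 2424 and 1515 to 2567 RPKM. Their part in the member differences was not tested.

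Of the 89 other lysosomal genes tested at 28 DPI, 9 were higher (10.1%) and 13 lower (14.6%) under anti-PD-1, beside 10.8% and 12.2% of all genes. Under the combination 18 were higher (20.2%) and 30 lower (33.7%) than vehicle, beside 17.5% and 25.8%, and 12 were higher (13.5%) and 23 lower (25.8%) than under 7aaRGD, beside 13% and 23.5%. Igf2r (the receptor that sorts mannose 6-phosphate-tagged hydrolases and takes up IGF2) was at 2.79 RPKM in vehicle, 9.99 RPKM in anti-PD-1 and 10.99 RPKM in combination samples, log2 fold changes of 1.55 and 1.66 against vehicle and 1.17 for the combination against 7aaRGD. Smpdl3b, a phosphodiesterase related to acid sphingomyelinase, was at 13.1, 29.4 and 44.5 RPKM in that order (1.11, 1.64 and 1.72). Cd63, a tetraspanin of late endosomes and lysosomes, was at 182, 100.1 and 70.2 RPKM (-0.87, -1.35 and -1.12). Of the other genes that led the falls, Ctse (cathepsin E) was at -0.79 under anti-PD-1, Acp5 at -1.28 under the combination against vehicle and Hgsnat (a heparan sulfate acetyltransferase) at -1.11 against 7aaRGD. In the 7 comparisons of a peptide without anti-PD-1, none of the 84 to 89 other lysosomal genes tested was called by limma. Of the members with CACGTG in the promoter window 3 of 12 fell and none rose under anti-PD-1, compared with none that fell and 2 of 24 that rose among those without it. Under the combination against vehicle, 5 of the 12 fell and none rose, and 6 of the 24 fell and 2 rose. The 3 that fell under anti-PD-1 were Ctsa, Lgmn and Ctsl, each of which lost its call when a single sample was left out. Atp6v1g1 also fell but has no window, so it is in neither count. The shares of all genes with and without the core were not computed, so these counts are not read as a result.

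Side by side, the 3 experiments gave different levels for some members, but the tables were normalized separately and hosts, tumors and days differ between them, so no test was made across them. Ctsd had a mean of 3408 RPKM in naive cells, 1034 RPKM in GL261 vehicle samples at 21 DPI, 1586 RPKM at 28 DPI and 3857 RPKM in U87-MG vehicle samples. Man2b1 followed the same order, from 238 RPKM in naive cells through 119 and 219 RPKM to 357 RPKM. Gla had another order, with 1.79 RPKM in naive cells, 25.3 and 25.4 RPKM in the GL261 vehicle groups and 7.21 RPKM in the U87-MG vehicle group. The 10 homeostatic microglia markers summed to 4495 to 5991 RPKM in the U87-MG vehicle samples. The members held 8.35% ± 0.128 (SD, n = 3) of the summed protein-coding RPKM in those samples and 6.88% ± 0.673 (SD, n = 4) in the GL261 vehicle samples at 28 DPI.

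The range of group means of the remaining members is given to place each on the scale of RPKM. Among the proteases, Ctsb ran from 553 in naive cells to 997 under 7aaRGD at 28 DPI, Ctsh from 133 in naive cells to 243 under 7aaRGD at 28 DPI, Ctsz from 914 in naive cells to 1414 under anti-PD-1, and Tpp1 from 51.5 under 7aaRAE at 21 DPI to 99.1 in naive cells. Among the glycosidases, Gusb ran from 71.5 under 7aaRAE at 21 DPI to 161 under 7aaRAE with U87-MG, and Gaa from 39.8 under 7aaRAE at 21 DPI to 68.7 in U87-MG vehicle samples. Glb1 and Neu1 stayed between 21.0 and 60.7 in every group. Of the lipid-handling genes, Lipa had the narrowest range, 24.4 to 32.6, and Asah1 lay between 113 and 172.

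The membrane proteins Lamp1 (466 to 673 RPKM), Cd68 (460 to 668 RPKM) and Lamp2 (43.1 to 61.9 RPKM) varied little between groups, and Grn ran from 728 RPKM under 7aaRGD at 21 DPI to 1256 RPKM under 7aaRAE with U87-MG. Mcoln1 stayed between 4.04 and 7.07 RPKM and Tfeb between 9.70 and 15.2 RPKM. Among the pump subunits Atp6ap1 (110 to 146 RPKM) and Atp6v0d1 (70.0 to 92.5 RPKM) were abundant throughout, Atp6v1e1, Atp6v1c1 and Atp6v1d lay between 8.997 and 33.7 RPKM, and Atp6v1h was the least abundant at 3.78 to 7.29 RPKM. In RPKM, subunits that stand in 1 complex thus differed by more than 10-fold within a group. RPKM divides by exon length, annotated as 9746 bases for Atp6v1h and 1063 bases for Atp6v1f. The part of that length in the gap was not tested.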

How the data were processed

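CD11b+ cells were profiled by stranded poly-A RNA sequencing. Per the study's methods the authors aligned trimmed reads to mm10 with STAR, counted them with HTSeq (version 0.11.1) and compared groups with NOISeq, which was not run here. The deposited values behave as RPKM plus 2: rows without signal stand at exactly 2, and the rest, less 2 and times exon length, sums to nearly the same total in each sample. The 2 was subtracted, and values then under 0 (12.6%, 12.6% and 14.0% of values in rows with signal, by table) were set to 0. Plain RPKM has no such values, and the sources used here state no further adjustment; if replicates were adjusted before deposit, the CVs and p-values understate the spread. Depth is unknown, so no counting error is given and the number of samples limits precision.

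Protein-coding genes reaching a mean of 1 RPKM were fitted as log2(RPKM + 1) with limma 3.58.1 (R 4.3.3, moderated with a trend), with two-sided tests and Benjamini-Hochberg adjustment over all genes fitted. The scale understates fold changes of low genes. The naive comparison used its own 6 samples, the others all tumor-bearing groups of their table. The fits were tested on simulated data. Alternatives were other pseudocounts, filters, scalings, samples and gene sets, the replicate number as a block, a robust fit, and 1 residual degree of freedom less, since replicate differences spanned 7 of 8 and 9 of 10 dimensions in the GL261 tables.

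The members and gene lists were chosen with earlier results of these data known. Every member is named; per comparison so are those past the threshold (all if 8 or fewer, otherwise the 4 largest rises and falls), the 3 largest estimates in each direction, and the 2 largest called rises and falls among other lysosomal genes. Others were named after their values were seen. The samples numbered 4 of anti-PD-1 and combination, and naive nude mice, were not analysed here. Positions are those of the GENCODE annotation of mm10.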

Additional observations from a re-analysis of the deposited data

Results flagged for a closer look

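Some samples stood apart from the others of their group at 28 DPI, by a gap to the nearest other sample above Dixon's 95% critical value for 4 samples. In the second 7aaRGD sample Ctsd was at 1277 RPKM, the other 3 samples being at 1890 to 1952 RPKM, and Hexa was at 261 RPKM beside 296 to 302 RPKM. Neu1 was at 35.4 RPKM in the first 7aaRGD sample beside 31.7 to 32.0 RPKM. Among vehicle samples, Atp6v1c1 was at 17.2 RPKM in the fourth beside 14.9 to 15.2 RPKM, and Atp6ap2 was at 55.6 RPKM in the third beside 64.7 to 65.6 RPKM. These were 5 of 88 groups of 4 samples, and chance alone flags about 1 in 20.

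Lamp2 moved in opposite directions under 7aaRGD in the GL261 tumors: all samples were below all vehicle samples at 21 DPI (log2 fold change -0.066) and above them at 28 DPI (0.19). The difference between these effects was not tested.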

How the results depend on the processing

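No member was called in any alternative for 7aaRGD or 7aaRAE against vehicle, 7aaRGD against 7aaRAE, the combination against anti-PD-1, or the interaction. Leaving out each sample in turn gave 36 to 38 members called for vehicle against naive, 3 to 9 for anti-PD-1 against vehicle (3 without anti-PD-1 sample 1), 11 to 19 for the combination against vehicle and 7 to 14 for the combination against 7aaRGD (7 without combination sample 1). With the replicate block 37, 5, 14 and 11 members were called in these comparisons. Correlations of same-numbered GL261 samples from different groups ran from -0.77 to 0.12 at 21 DPI, where 1 of the 9 was over 0.1. The range was -0.50 to 0.37 at 28 DPI, where 3 of the 19 were over 0.1. Replicate differences spanned fewer dimensions than they could in both GL261 tables. If replicates were adjusted before deposit, these correlations cannot show whether same-numbered samples shared more than a number. Under the block the call of Ctsl in anti-PD-1 against vehicle was lost (adjusted p = 0.0540, limma with Benjamini-Hochberg). No paired analysis was possible for U87-MG because its column names repeat the number 1 for every sample of a group.

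The median member of vehicle against naive was 0.18 under median-of-ratios scaling, and 10 members were called for the combination against vehicle under TMM scaling. Signs turned for Atp6ap2 in vehicle against naive (0.017, median-of-ratios), for Laptm5 (-0.0079) and Scarb2 (-0.0079) in 7aaRGD against vehicle at 21 DPI (TMM), and, with each sample left out in turn, for Gla in U87-MG 7aaRGD against vehicle (-0.14 to 0.53) and Hexa in U87-MG 7aaRGD against 7aaRAE (-0.046 to 0.29). Of these only Atp6ap2 had been called. With all rows in the denominator the members held 6.78% of the summed RPKM in naive, 5.79% in vehicle, 5.31% in 7aaRGD and 5.49% in 7aaRAE samples at 21 DPI, 6.69% in 7aaRGD and 6.29% in combination samples at 28 DPI, and 7.67%, 7.15% and 7.78% in U87-MG vehicle, 7aaRGD and 7aaRAE samples, since rows outside the protein-coding genes add to the denominator. The causes of the other changes were not tested. With unknown depth and 3 or 4 samples in a group, a member that was not called may still differ by an amount inside its interval.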
